A study of Mus musculus with 12 samples.

Results

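The cells described here came from mouse small intestinal organoids that had been co-cultured with regulatory T cells (Treg cells), with or without an antibody that neutralises interferon-γ (IFNγ). Organoids are crypt-like epithelial structures grown from intestinal stem cells in a gel, here from BALB/c mice. The comparison set the group Treg + anti-IFNγ against the group Treg. Cells were members if they carried 1 hashtag of these groups (an antibody-bound barcode that marks the culture a cell came from), had 10000 to 90000 unique molecular identifiers (UMIs, 1 for each captured RNA molecule), 3000 to 10000 detected genes and at most 8.5% mitochondrial UMIs. This left 4217 of the 11911 cells of all 6 groups, of which 2097 came from Treg (705, 972 and 420 in replicates 1 to 3) and 2120 from Treg + anti-IFNγ (736 in replicate 1, 385 in replicate 3 and the rest in replicate 2).

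In both groups the Treg cells were allogeneic, sorted as CD25high FoxP3-GFP+, given IL-2 and CD3/CD28 beads, and kept in the same well without direct contact with the organoids for 4 days. They were taken away before the epithelial cells were sorted as EpCAM+ and negative for propidium iodide. The cultures of Treg + anti-IFNγ also received 10 µg/ml of the anti-IFNγ antibody. The reference groups were organoids cultured alone (control), Treg with an antibody against the IL-10 receptor (Treg + anti-IL-10R), Treg with both antibodies, and organoids given recombinant IFNγ and IL-10 without Treg cells. Each group had 3 replicates. The study describes these as independent experiments, and nothing in the labels names a mouse for each, so p-values measure the spread between these cultures. No isotype control antibody is named in the sources used here.

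IFNγ binds a receptor made of the chains IFNGR1 and IFNGR2, which signals through the kinases JAK1 and JAK2. The signal ends at gamma-activated sites in DNA and switches on genes such as Irf1, whose product is itself a transcription factor that binds interferon-stimulated response elements. In epithelial cells the pathway is known for raising antigen presentation by MHC class I and, through the co-activator CIITA, by MHC class II, for exchanging subunits of the proteasome, and for inducing GTPases and caspases that act against intracellular microbes.

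The 5 libraries held 5387 to 7995 barcodes and 128917456 to 223155304 UMIs each. All 6 groups were pooled in every library, so that both groups compared here were sequenced together. Libraries 1 and 2 form replicate 1, libraries 3 and 4 replicate 2, and library 5 replicate 3. Between 9 and 24 barcodes were shared by each pair of libraries, and 3 of the shared barcodes were kept in the same group in both. The median UMI count per cell was 44488 in Treg and 44571.5 in Treg + anti-IFNγ. UMIs were summed per group and replicate and are given as CPM (the count of a gene per 1000000 UMIs of its sum).

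Promoter sequence is shown for 4 of the genes that fell, because the factors at the end of the pathway bind 2 known kinds of site. A RefSeq window of 250 bases before the gene start (GRCm38.p6) was found for 22 of the 29 genes that fell with the antibody, with 26 windows in all, since a gene can have several starts. The gamma-activated site was searched as TTCNNNGAA, which reads the same on both strands, and the core of the response element as GAAA, any 2 bases and again GAAA, on both strands. The first was present in 3 of the 26 windows (Irf1, Psmb8 and Casp12), a share of 11.5% against 7.02% of all 32851 windows and 5.94% of the windows of genes tested. The second was present in 4 (Ctss, Adh6a, Lgals9 and Trim26), or 15.4% against 2.98% of all windows and 2.61% of those of genes tested. No window held both. A match is a string of letters and not a measured binding event. Capitals mark the matched letters. The Irf1 window is chr11:53769764-53770013 (plus strand), the Psmb8 window chr17:34197945-34198194 (plus strand), the Ctss window chr3:95526536-95526785 (plus strand) and the Adh6a window chr3:138313036-138313285 (plus strand).
Irf1: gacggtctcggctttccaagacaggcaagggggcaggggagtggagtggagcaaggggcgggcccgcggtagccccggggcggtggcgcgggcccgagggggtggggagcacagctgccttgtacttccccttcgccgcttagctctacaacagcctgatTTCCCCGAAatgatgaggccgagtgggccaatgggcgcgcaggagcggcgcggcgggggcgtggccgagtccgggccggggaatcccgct
Psmb8: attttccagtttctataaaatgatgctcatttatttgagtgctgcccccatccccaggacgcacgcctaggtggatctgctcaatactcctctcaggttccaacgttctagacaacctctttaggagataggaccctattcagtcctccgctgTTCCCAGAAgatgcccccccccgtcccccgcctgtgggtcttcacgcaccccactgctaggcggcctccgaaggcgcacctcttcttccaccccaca
Ctss: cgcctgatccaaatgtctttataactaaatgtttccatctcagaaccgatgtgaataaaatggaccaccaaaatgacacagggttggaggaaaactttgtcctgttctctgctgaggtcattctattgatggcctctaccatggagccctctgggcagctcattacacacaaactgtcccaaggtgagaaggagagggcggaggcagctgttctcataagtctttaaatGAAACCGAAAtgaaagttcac
Adh6a: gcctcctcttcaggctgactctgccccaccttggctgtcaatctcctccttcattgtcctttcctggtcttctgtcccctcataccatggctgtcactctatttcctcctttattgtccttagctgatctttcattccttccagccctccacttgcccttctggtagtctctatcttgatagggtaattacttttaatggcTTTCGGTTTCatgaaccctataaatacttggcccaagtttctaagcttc

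The match in the Irf1 window ended 82 bases before the gene start, and that in the Psmb8 window 89 bases before it. In the Ctss window it ended 12 bases before the start. The Adh6a window held the response element core on the opposite strand, ending 40 bases before the start.

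In the fit over all 6 groups, 29 genes were lower with anti-IFNγ than in Treg alone and none was higher. Some other fits also called genes higher, as given below. The test was edgeR's quasi-likelihood test on summed UMIs with the replicate as a block, and a gene counts as fallen or risen at a Benjamini-Hochberg adjusted p below 0.05 over all genes tested. The 29 genes are 0.193% of the 15002 genes tested. At an unadjusted p below 0.05 there were 1225 genes, and 50.4% of all genes tested had a negative change. Of the 29 genes, 5 belong to the immunoproteasome list, 4 to MHC class I and 3 to MHC class II presentation, 2 to IFNγ signalling, 2 to cell death and 1 to the genes linked to type I interferon, and 12 to none of the lists described below. Their median change was -1.04 on the log2 scale, from -4.86 (Cd74) to -0.29 (Pnpla2). In replicates 1, 2 and 3 the median log2 ratio was -0.83, -1.16 and -0.85. For 26 of the 29 the replicates of the groups did not overlap, where 2.47% of all genes tested lay lower without overlap and 2.85% higher. The 29 were picked from these same values, so this describes them and is not a test.

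The number of genes called rested on replicates 2 and 3. It was 0 without replicate 3, 7 without replicate 2 and 67 without replicate 1, where 26 of the 29 were called again, and 7 without the replicate block. DESeq2 called 86 genes, 10 of them higher with anti-IFNγ. A fit on the Treg and Treg + anti-IFNγ sums alone called 286, 48 of them higher. Without replicate 1, 6 of the calls were higher. All 29 genes were lower in every one of these settings. The settings reuse cells from which the 29 were picked, so this is not an independent check.

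The genes of the receptor did not pass the test. Ifngr1, the ligand-binding chain, stood at 109.7, 91.6 and 103.1 CPM in Treg and at 112.9, 96.7 and 100.1 CPM in Treg + anti-IFNγ, a log2 change of 0.01 ± 0.06 (SE). Ifngr2 changed by 0.07, Jak1 by -0.12 and Jak2 by -0.08 on the log2 scale, none past the threshold. No UMI of Ifng was found in the cells of either group.

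Irf1 was the gene with the smallest p-value in the comparison. It lies on chromosome 11 (GRCm38, 53770014 to 53778374) and encodes interferon regulatory factor 1. Its level was 41.4, 64.8 and 39.1 CPM in Treg, 8.91, 6.17 and 6.33 CPM in Treg + anti-IFNγ and 9.70, 6.69 and 7.49 CPM in control organoids. Every Treg replicate was thus far above every replicate of control and of Treg + anti-IFNγ, and the fall was -2.80 ± 0.28 on the log2 scale (adjusted p = 0.001). The neighbouring predicted gene Gm12216 (chromosome 11, 53785489 to 53859256), with no function known here, fell by 2.56 (SE 0.29, adjusted p = 0.00144). Irf9, the DNA-binding subunit of the type I interferon factor ISGF3, went from 8.60, 7.71 and 7.91 CPM to 4.24, 3.51 and 3.72 CPM (-1.11 ± 0.15). Of the 16 genes of IFNγ receptor, STAT and IRF signalling, Irf1 and Irf9 fell and none rose, with a median log2 change of -0.21 over the list against -0.00122 over all genes. Nmi, which encodes a partner of STAT and Myc proteins and is outside that list, fell from 26.2, 23.6 and 23.2 CPM to 16.4, 13.5 and 17.4 CPM (-0.66 ± 0.08, adjusted p = 0.00144).

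**Figure D1:**
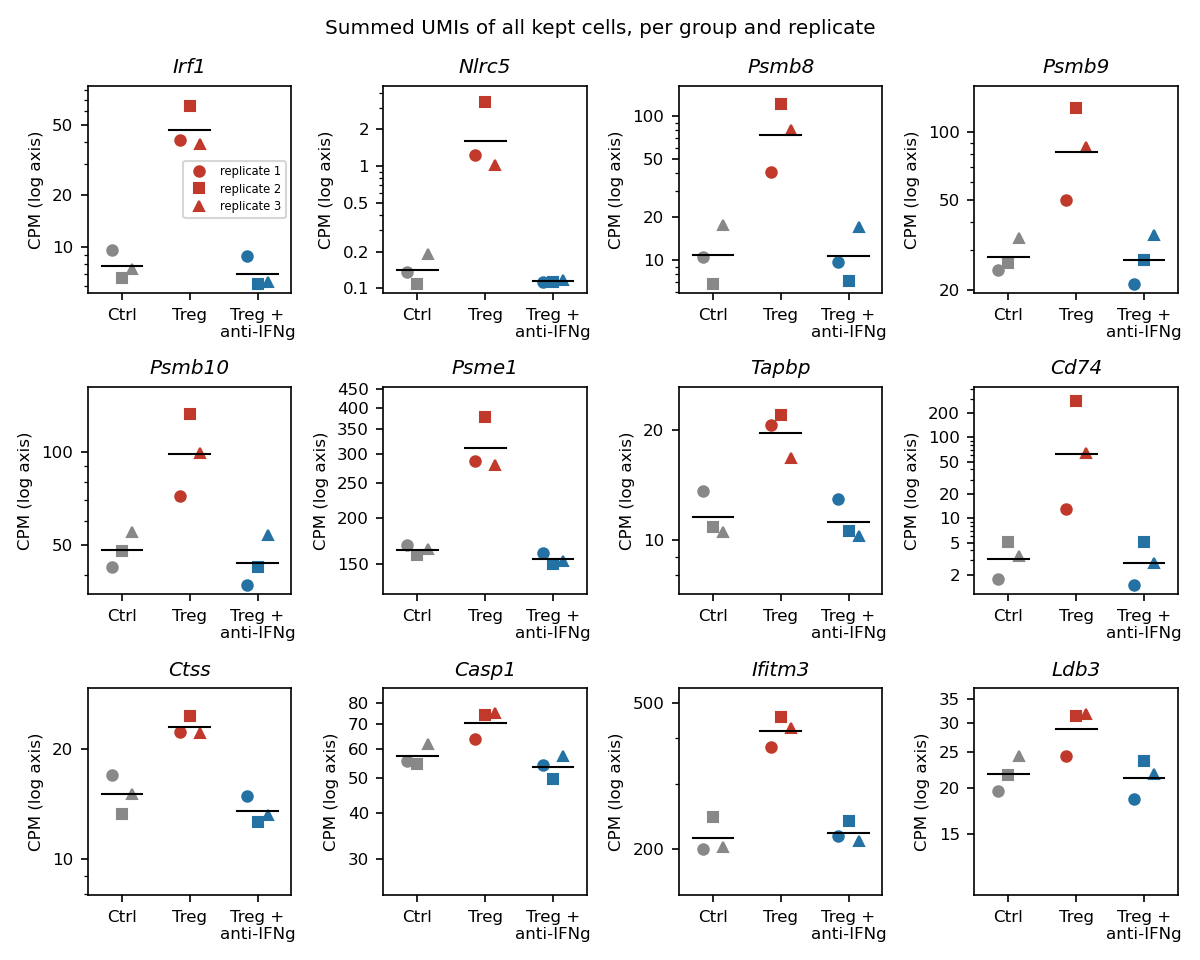
Level of 12 genes in summed cells, in CPM on a log axis, for control organoids, Treg and Treg + anti-IFNγ; each point is 1 of 3 replicates and the bar is their geometric mean. The Treg replicates of Irf1 sit at 39.1 to 64.8 CPM, above the control and antibody replicates, which lie between 6.17 and 9.70 CPM.

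The immunoproteasome is a form of the proteasome whose exchanged subunits cut proteins into peptides suited to MHC class I. Of the 6 genes in this list, 5 fell and Ubd did not pass the test. Psmb8, a catalytic subunit, was at 40.7, 121.6 and 79.8 CPM in Treg and at 9.76, 7.21 and 16.9 CPM with the antibody, a change of -2.91 ± 0.42 (adjusted p = 0.00724). Psmb9, a catalytic subunit also encoded on chromosome 17, fell from 50.1, 127.5 and 86.0 CPM to 21.2, 27.1 and 35.2 CPM. Psmb10, the remaining exchanged catalytic subunit, went from 72.0, 132.0 and 99.5 CPM to 37.1, 42.4 and 53.9 CPM. None of these ranges overlapped, and the log2 changes were -1.66 ± 0.27 for Psmb9 and -1.20 ± 0.17 for Psmb10. Psme1 and Psme2, which encode the subunits of the PA28 activator cap, lie near each other on chromosome 14. Psme1 was more abundant, at 286.4, 379.0 and 278.8 CPM in Treg and 160.6, 149.6 and 153.2 CPM with the antibody (-1.04 ± 0.12, adjusted p = 0.00144), and Psme2 fell by 0.86 (SE 0.11).

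The constitutive proteasome, the form in all cells, held no call. None of its 31 genes passed the test in either direction with edgeR, although 30 had a negative change, and the list's median was -0.05. Psmb5, Psmb6 and Psmb7, which encode the subunits that the immunoproteasome replaces, changed by -0.06, -0.04 and -0.07 on the log2 scale.

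Within MHC class I presentation, all 18 genes had a negative change and 4 fell, with a median of -0.52. Nlrc5, the transactivator of class I genes, was at 1.23, 3.32 and 1.02 CPM in Treg and at 0.113, 0.114 and 0.116 CPM with the antibody, a change of -4.08 ± 0.71 (adjusted p = 0.0283) that rests on 204 against 11 UMIs. Tapbp (tapasin, which loads peptides onto class I molecules) fell by 0.85, and its relative Tapbpl by 1.30. Erap1, which trims peptides in the endoplasmic reticulum, went from 47.6, 38.7 and 33.8 CPM to 36.7, 25.1 and 23.5 CPM (-0.53 ± 0.07), with replicate 3 of Treg below replicate 1 of Treg + anti-IFNγ. The class I molecules themselves did not pass. H2-K1 was at 123.9, 198.1 and 174.0 CPM in Treg and 103.2, 126.7 and 138.3 CPM with the antibody (-0.44 ± 0.13, adjusted p = 0.374), and H2-D1 changed by -0.48 and B2m by -0.45. Tap1, a subunit of the peptide transporter, changed by -1.85 ± 0.40 (adjusted p = 0.111).

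MHC class II presentation showed the largest changes by size and also the largest spread between the Treg replicates. Cd74, the invariant chain that chaperones class II molecules, was at 12.9, 279.8 and 64.3 CPM in Treg, at 1.499, 5.10 and 2.79 CPM in Treg + anti-IFNγ and at 1.77, 5.06 and 3.39 CPM in control organoids. Replicate 2 of Treg was thus far above replicate 1, and the libraries within a replicate were alike, at 13.5 and 12.3 CPM in libraries 1 and 2 and 271.8 and 284.3 CPM in libraries 3 and 4. The fall was -4.86 ± 0.73 on the log2 scale (adjusted p = 0.00952). Ciita, the master regulator of class II genes, stood at 1.35, 7.50 and 2.19 CPM in Treg and at 0.0848, 0.228 and 0 CPM with the antibody, which rests on 411 against 13 UMIs (-4.81 ± 0.75). Ctss (cathepsin S), the protease that degrades the invariant chain, fell from 22.3, 24.7 and 22.1 CPM to 14.9, 12.6 and 13.2 CPM (-0.78 ± 0.11). The class II chains showed the same spread as Cd74. H2-Aa was at 2.82, 44.8 and 6.84 CPM in Treg and at 0.396, 0.797 and 0.871 CPM with the antibody, a change of -4.63 ± 0.91 at an adjusted p of 0.0689. H2-Ab1 (-4.11) and H2-Eb1 (-4.49) also missed the threshold in all cells, with adjusted p-values of 0.0927 and 0.0932. Over the 11 genes of the list, 3 fell, 9 had a negative change and the median was -4.11.

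In single cells, the share of Treg cells with Cd74 differed between replicates. At least 1 Cd74 UMI was found in 21.3%, 73.7% and 45.2% of Treg cells, in 6.93%, 19.4% and 12.2% of Treg + anti-IFNγ cells and in 6.54%, 19.1% and 13.3% of control cells. With every cell thinned to 10000 UMIs the shares were 8.23%, 56.2% and 28.1% in Treg against 1.63%, 6.31% and 3.64% with the antibody. Cells with 5 or more Cd74 UMIs numbered 27, 501 and 76 in Treg and 0 in each replicate of Treg + anti-IFNγ. The 10% of Treg cells with the most Cd74 held 81.4%, 40.1% and 65.0% of its UMIs. The shares with the antibody lay at those of control cells, which are the background here, and the cytokine-stimulated cells pooled in the same libraries had 996.4 to 1559 CPM of Cd74; the part of free RNA was not tested.

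The GTPases of the IRG and GBP families, which attack the membranes around intracellular pathogens, were detected at low levels. Of 17 genes, 14 were tested, all 14 had a negative change and none passed with edgeR. The low-count filter ran over all 6 groups, so genes could enter through the groups where they are high. The count of negative changes and the median are therefore not a test. The median was -3.11, or -2.72 with the 2 genes at 0 UMIs in a group set to a floor of 3 counts over the group. Ifi47 came closest, at 2.85, 5.67 and 4.13 CPM in Treg and 1.02, 0.637 and 1.04 CPM with the antibody (-2.34 ± 0.47, adjusted p = 0.0814). Igtp was at 1.98, 12.9 and 2.04 CPM in Treg and 0.933, 0.501 and 0.697 CPM with the antibody, without overlap but with replicate 2 of Treg far above the others (-3.12 ± 1.08, adjusted p = 0.467).

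Among 28 tested genes linked to type I interferon, 1 fell, 21 had a negative change and the median was -0.33. The gene that fell was Ifitm3, a membrane protein that blocks virus entry. It was at 379.7, 458.4 and 426.6 CPM in Treg, 216.3, 237.3 and 209.8 CPM with the antibody and 199.1, 243.4 and 202.1 CPM in control organoids (-0.95 ± 0.11, adjusted p = 0.00181). Shfl, whose product inhibits translation of some viruses, is outside the lists and fell by 1.16. None of 15 tested chemokines, checkpoint ligands and Ido1 passed (median -0.18). Cxcl9 and Cxcl10, classical IFNγ targets, had only 5 and 28 UMIs in all Treg cells and 7 and 27 with the antibody.

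Among 22 tested cell death genes, Casp1 and Gsdmd fell, none rose, and the median was -0.17. Both encode parts of the pyroptosis machinery, in which caspase-1 cleaves gasdermin D to open pores in the membrane. Casp1 was at 63.7, 74.1 and 75.0 CPM in Treg and at 54.2, 49.8 and 57.4 CPM with the antibody, a small change without overlap (-0.42 ± 0.08, adjusted p = 0.0384). Gsdmd fell by 0.89 (SE 0.17, adjusted p = 0.0479), close to the threshold. Casp12, which neighbours Casp1 on chromosome 9, fell from 1.11, 0.581 and 0.715 CPM to 0.198, 0.0455 and 0.116 CPM, on 76 against 11 UMIs.

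The other genes that fell have varied roles. Adh6a, a member of the alcohol dehydrogenase family on chromosome 3 whose promoter is printed above, was at 2.91, 7.71 and 8.47 CPM in Treg and at 0.594, 1.02 and 1.10 CPM with the antibody (-2.75 ± 0.41, adjusted p = 0.00952). Its control level was 1.43, 0.843 and 2.05 CPM. Lgals9 (galectin-9, a secreted glycan-binding protein) was abundant, at 354.8, 335.5 and 259.2 CPM in Treg, and fell by 0.51. Unc93b1, which carries endosomal Toll-like receptors to their compartment, fell by 0.88, and Tnfaip8l3 by 1.31. Smaller falls were seen for Ldb3, best known as a protein of the muscle Z-disc (-0.46), Epsti1 (-0.40), Trim26, a member of the TRIM family (-0.36), and Pnpla2, the adipose triglyceride lipase (-0.29).

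**Figure D2:**
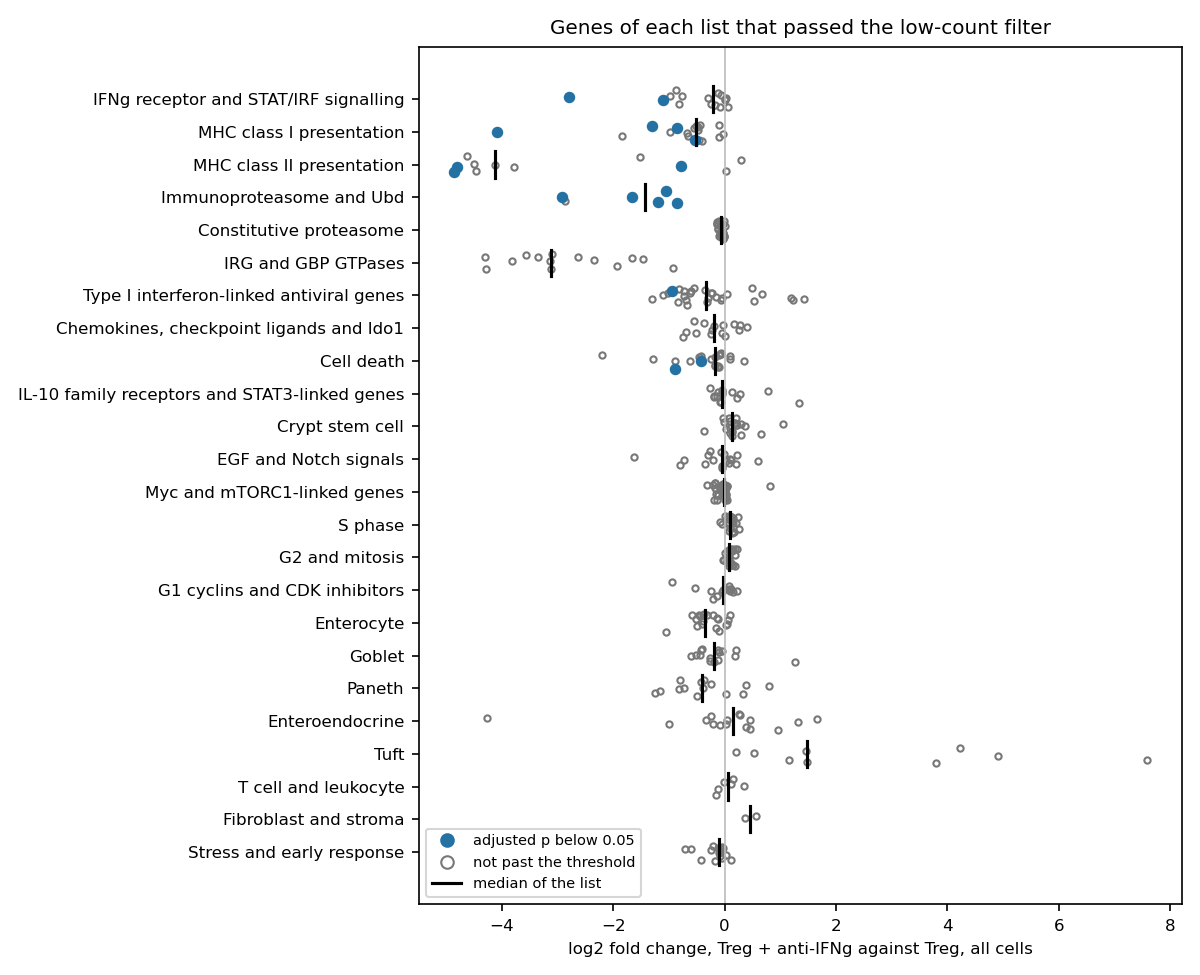
Log2 change of each tested gene (Treg + anti-IFNγ over Treg, all cells), grouped by gene list; each point is a gene, filled where the adjusted p is below 0.05, and the bar is the list's median. The filled points lie left of 0 in the IFNγ signalling, antigen presentation, immunoproteasome and cell death lists, and in the type I interferon list, and the medians of the lists without a call lie between -0.40 and 0.46 apart from those of the GTPase (-3.11) and tuft (1.47) genes.

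No list of epithelial identity, growth or cell cycle held a gene past the threshold with edgeR in all cells. The crypt stem cell list had 18 of 21 genes with a positive change and a median of 0.14. Lgr5, a marker of stem cells, was at 63.8, 47.8 and 42.9 CPM in Treg and 65.8, 66.6 and 36.7 CPM with the antibody, with overlapping replicates (0.08 ± 0.20). Olfm4, a marker of crypt base cells, changed by 0.37 (adjusted p = 0.689). The S phase and the G2 and mitosis lists each had 23 of 25 genes with a positive change, with medians of 0.11 and 0.09, and the G1 list of 13 genes a median of -0.02. Myc was at 70.3, 73.2 and 63.9 CPM in Treg and 74.5, 76.6 and 63.0 CPM with the antibody (0.03 ± 0.10). The 36 genes linked to Myc and mTORC1 had a median of -0.01 in all cells, with values per class given below. EGF and Notch signals (18 genes) had a median of -0.04, and stress genes (16) one of -0.09.

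Markers of mature epithelium were mostly on the other side of 0. The enterocyte list had 16 of 20 genes with a negative change and a median of -0.34, the goblet list 12 of 15 (median -0.18) and the Paneth list 10 of 14 (median -0.40). In summed cells, fewer cells of a type and less RNA per cell cannot be told apart, and enterocyte-like cells made up 13.4% of Treg cells and 9.41% of Treg + anti-IFNγ cells on average. Within enterocyte-like cells, a class described below, 17 of 20 genes of the enterocyte list had a negative change, with a median of -0.13. The same limit applies to the stem cell and cell cycle lists in all cells. Lyz1 (lysozyme) was at 72.3, 232.8 and 116.9 CPM in Treg and at 52.7, 59.8 and 55.0 CPM with the antibody (-1.25 ± 0.38, adjusted p = 0.374). The summed Paneth list was at 853.5, 2272 and 851.6 CPM in Treg and at 529.7, 1109 and 1390 CPM with the antibody. Control organoids had 1054, 1383 and 2148 CPM of it. The goblet sum was at 1544, 2931 and 1534 CPM in Treg and at 1214, 1604 and 2360 CPM with the antibody. Both sums were thus higher with the antibody in replicate 3 only. The 16 enteroendocrine genes had a median of 0.15. Of the 15 tested IL-10 receptor and STAT3-linked genes none passed (median -0.05). Il10ra, the ligand-binding chain, had 0 UMIs in both groups, Il10rb changed by -0.08 and Stat3 by -0.17. Reg3b, an antimicrobial lectin, was at 14.4, 1.14 and 2.25 CPM in Treg and 15.02, 2.71 and 23.9 CPM with the antibody (1.33 ± 0.49, adjusted p = 0.506), so that its replicates overlapped widely, and Reg3g changed by 0.22.

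Genes that define T cells had few UMIs, while some genes of the leukocyte and stromal lists were detected in both groups. Of 20 T cell and leukocyte genes, 4 were at 0 UMIs in Treg and 6 in Treg + anti-IFNγ, and 6 were expressed enough to be tested and none of these passed (median 0.06). Ptprc (CD45) had 0 UMIs in both groups, and Foxp3 had 6 in Treg and 1 in Treg + anti-IFNγ. The most abundant was Lcp1 (L-plastin, an actin-bundling protein), with 1864 and 2116 UMIs, followed by Ctla4 with 167 and 189 and Itgam with 131 and 130. The summed level of the list was 29.4, 22.03 and 21.1 CPM in Treg, 32.6, 24.6 and 21.1 CPM with the antibody and 30.5, 25.7 and 22.1 CPM in control organoids, which held no T cells. Fibroblast and stromal genes summed to 1.94 to 2.95 CPM in Treg and 2.97 to 3.77 CPM with the antibody, with 2 of 10 tested (Vim at 201 and 248 UMIs and Pecam1 at 34 and 52) and neither called.

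Cells were also compared within classes. Control cells were clustered into 12 clusters, the clusters named from marker lists after they had been seen, and each cell of the other groups given the class of the control cluster it resembled most, without the interferon genes. The assignment gave 80.4% of control cells their own class back. The classes were intestinal stem cell-like (ISC-like, 608 Treg and 779 Treg + anti-IFNγ cells), transit-amplifying-like (TA-like, 712 and 725), enterocyte progenitor-like (EP-like, 181 and 155), enterocyte-like (291 and 191), goblet/Paneth-like (76 and 47), endocrine-like (38 and 34, too few to test) and an unnamed class (191 and 189). Names were rebuilt from markers and may differ from those of the study. The EP-like name is weak, since no marker of that class was among the leading genes of its only control cluster. ISC-like and TA-like were not cleanly apart either. ISC-like clusters scored 0.91, 1.06 and 1.19 for ISC-like markers (mean scaled level) and 0.77, 0.98 and -0.33 for TA-like markers. TA-like clusters scored 0.45 to 0.84 for TA-like markers. Genes of G2 and mitosis summed to 4084, 3981 and 3495 CPM in ISC-like Treg cells and 3774, 3532 and 3429 CPM in TA-like ones. Both classes thus held cycling cells.

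In ISC-like cells 26 genes fell (0.205% of 12675 tested) and none rose. In TA-like cells 45 fell (0.362% of 12442) and 11 rose (0.0884%). Enterocyte-like cells had 15 genes that fell (0.148% of 10146) and 1 that rose (0.00986%), and EP-like cells 9 that fell (0.0916% of 9823) and none that rose. In the unnamed class 27 fell (0.278% of 9723) and 4 rose (0.0411%). In goblet/Paneth-like cells edgeR called none of 8053 genes, with 352 at an unadjusted p below 0.05, and DESeq2 called 1. As in all cells, replicate 3 weighed on these counts, which without it were 15 for TA-like, 2 for ISC-like, 2 for enterocyte-like and 0 for EP-like cells. Without replicate 2 they were 28 for TA-like and 13 for ISC-like cells, and without replicate 1 ISC-like cells had 70 calls. The direction of the calls also depended on the fit. With only the groups of the contrast, 109 of 289 calls in ISC-like and 114 of 298 in TA-like cells were higher with anti-IFNγ. The same fit had 35 of 108 higher in enterocyte-like and 16 of 53 in EP-like cells. The classes differ in cell number, and the smallest sum was 312038 UMIs in goblet/Paneth-like cells against 3509813 in ISC-like cells. Over the 5 named classes tested, 69 genes were called in at least 1 class, 24 of them also in all cells. In ISC-like cells 30 of 35 genes linked to Myc and mTORC1 had a negative change (median -0.095), where 49.8% of all genes tested did. In TA-like cells 25 of 36 were negative (median -0.034) and in EP-like cells 18 of 35. In enterocyte-like cells 23 of 34 were positive (median 0.092). None passed in these classes, and the list was not tested as a set. S phase genes were positive in 11 of 25 in ISC-like and 24 of 25 in TA-like cells.

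The same 6 genes fell in each of 4 classes, the enterocyte-like, EP-like, TA-like and ISC-like cells. These were Irf1 and the immunoproteasome genes Psmb8, Psmb9, Psmb10, Psme1 and Psme2. In ISC-like cells Irf1 was at 38.1, 68.0 and 42.8 CPM in Treg and at 6.95, 4.82 and 6.55 CPM with the antibody. In enterocyte-like cells it was at 60.5, 86.0 and 39.3 CPM against 19.5, 8.45 and 6.94 CPM. The log2 changes were -3.10 ± 0.27 in TA-like cells, -3.07 ± 0.31 in ISC-like cells, -2.43 ± 0.36 in enterocyte-like cells and -2.36 ± 0.26 in EP-like cells, and the differences between classes were not tested. In goblet/Paneth-like cells Irf1 was at 19.2, 42.8 and 13.0 CPM in Treg and 16.0, 16.3 and 13.8 CPM with the antibody, with overlap (-0.99 ± 0.50).

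**Figure D3:**
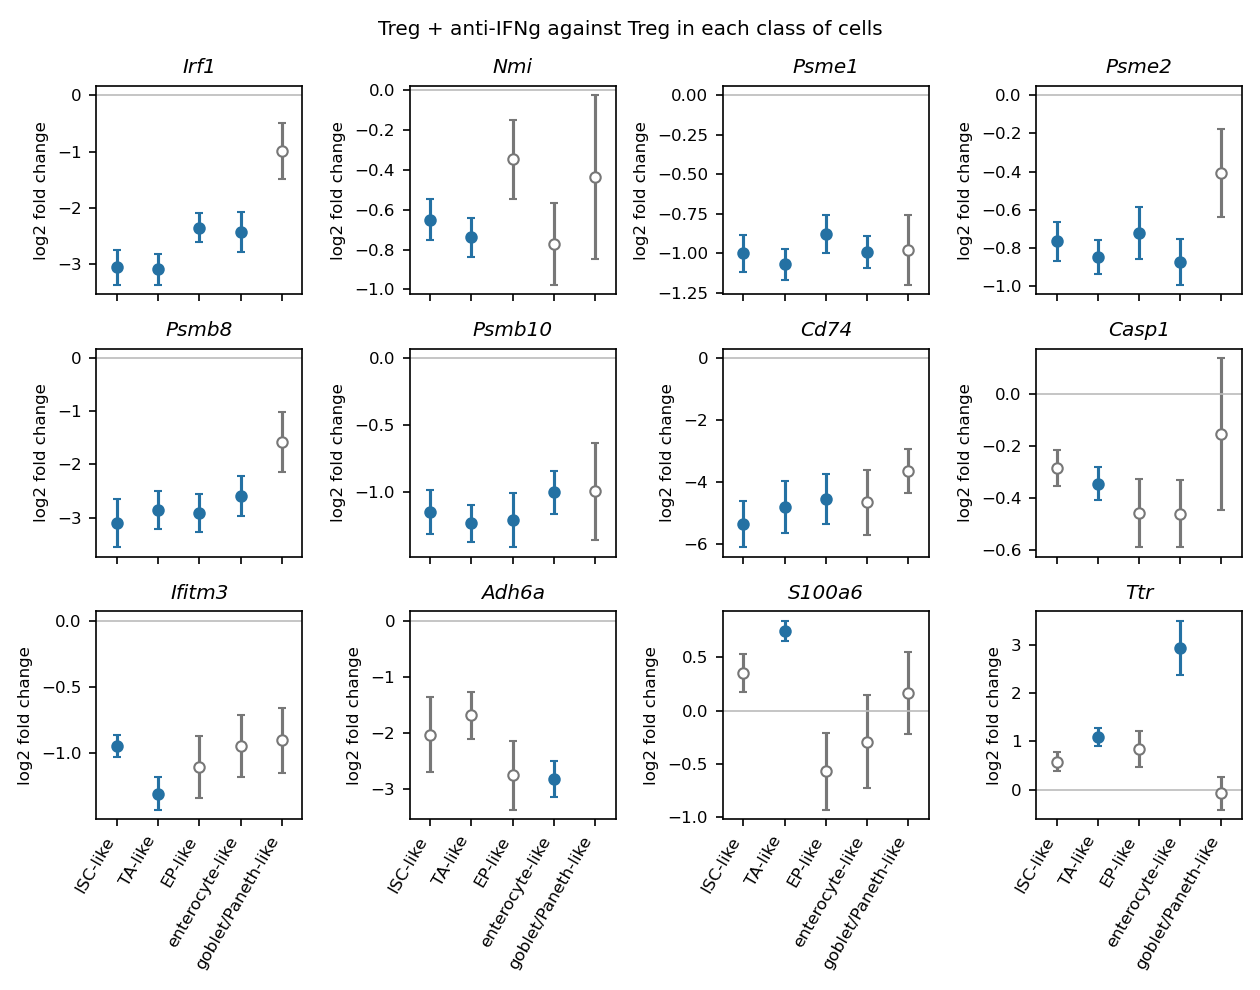
Log2 change (Treg + anti-IFNγ over Treg) with its standard error for 12 genes in 5 cell classes, filled where the adjusted p is below 0.05; each panel has its own scale, and a class without a point was not tested for that gene. Irf1 and the Psmb and Psme genes are filled and below 0 in the enterocyte-like, EP-like, TA-like and ISC-like classes, and no gene is filled in goblet/Paneth-like cells.

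The class II chains passed the test in ISC-like cells. H2-Aa was there at 3.55, 67.3 and 10.4 CPM in Treg and at 0.351, 1.01 and 0.885 CPM with the antibody (-5.17 ± 1.00, adjusted p = 0.0306). H2-Ab1 changed by -4.74 and H2-Eb1 by -5.36, each at an adjusted p of 0.0457, and H2-DMa, which exchanges peptides on class II molecules, by -1.98. Of the 11 genes of the class II list 7 fell in this class. Art2b, an ADP-ribosyltransferase, fell from 1.31, 4.75 and 2.79 CPM to 0.351, 0.179 and 0.177 CPM (adjusted p = 0.00116), and Btnl2, a butyrophilin-like gene, by 1.19. In TA-like cells the calls below Treg included Irf8 (-0.84), Tap1 (-1.92) and B2m (-0.44), genes that had missed the threshold in all cells.

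The 11 genes that rose in TA-like cells have varied roles, and their number depended on the fit. Counted anew in each fit, 2 genes rose without replicate 3, 5 without replicate 2, 18 without replicate 1, 1 without the replicate block and 6 with DESeq2. Far more rose in other fits, with 61 without the cytokine-stimulated group, 114 with only the groups of the contrast and 115 without the filter on low counts. How many of the 11 rose again in each fit is not given here. S100a6, a calcium-binding protein, was at 21.0, 17.1 and 18.5 CPM in Treg and at 37.7, 28.9 and 27.9 CPM with the antibody, without overlap (0.75 ± 0.10, adjusted p = 0.000246), and at 24.0, 24.1 and 23.7 CPM in control organoids. Ttr (transthyretin, a carrier of thyroid hormone and retinol-binding protein) was at 13.0, 7.30 and 18.2 CPM in Treg, 23.5, 25.4 and 28.2 CPM with the antibody and 21.0, 23.4 and 29.5 CPM in control organoids (1.09 ± 0.19, adjusted p = 0.00572). Tstd1 rose by 0.44. Ascl2, a transcription factor of crypt stem cells, was at 6.72, 15.1 and 18.3 CPM in Treg and 9.05, 28.9 and 24.0 CPM with the antibody, so that its replicates overlapped (0.63 ± 0.14, adjusted p = 0.0414). Samd9l, known as an interferon-stimulated gene, also rose, from 3.69, 2.06 and 2.93 CPM to 6.08, 4.71 and 6.22 CPM. The others were Itgb3bp (0.32), Fam92a (0.70), Reg3g (0.76), Sycn (0.92), Tdrd12 (1.16) and Depp1 (4.18, from levels near 0).

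In enterocyte-like cells Adh6a was among the genes that fell. It was at 16.5, 33.5 and 52.2 CPM in Treg, at 2.21, 5.99 and 5.68 CPM with the antibody and at 10.996, 4.95 and 12.2 CPM in control cells (-2.82 ± 0.33, adjusted p = 0.000114). Pnp, a purine phosphorylase, fell by 0.68, H2-K1 by 0.58 and Lypd8, a secreted protein that keeps flagellated bacteria off the epithelium, by 0.37. Ttr rose in this class, from 1.36, 0.578 and 1.08 CPM to 12.9, 2.82 and 10.7 CPM (2.94 ± 0.56, adjusted p = 0.0258).

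To see how many cells carried the change, the UMIs of 41 genes were summed in each cell as a share of its UMIs. The 41 are the MHC class I, immunoproteasome and GTPase lists, without class II genes, Irf1 or Ifitm3. They include the 5 immunoproteasome and 4 class I genes called above in the same cells. The share thus restates those calls and is not an independent test. In each replicate an interferon limit was set at the 95th percentile of its control cells, which fixes the share of control cells above it. Above it lay 28.2%, 66.9% and 39.0% of Treg cells and 4.35%, 4.10% and 7.27% of Treg + anti-IFNγ cells, where control replicates were at 5.03%, 5.04% and 5.22%. The means were 44.7% ± 19.9 and 5.24% ± 1.76 (SD, n = 3 each), and the exact permutation test gave p = 0.1 (two-sided), the smallest that 3 against 3 allows. This test did not pair the replicates, although replicates of the same number share libraries. With cells thinned to 10000 UMIs the means were 33.5% and 4.95%. Calr, Canx and Pdia3, general chaperones of the endoplasmic reticulum, are abundant in secretory cells. Without them the shares were 38.0%, 71.4% and 40.7% in Treg and 2.72%, 2.90% and 4.42% with the antibody.

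The shift was seen in each of the larger classes. Without the chaperones, 31.01%, 68.9% and 34.8% of ISC-like Treg cells lay above the limit, and 1.74%, 1.61% and 3.33% with the antibody. For TA-like cells the shares were 36.5%, 66.3% and 34.8% against 1.56%, 1.80% and 1.49%. Enterocyte-like cells had the highest shares in Treg, at 57.0%, 88.8% and 68.8%, against 1.39%, 6.41% and 12.2% with the antibody and 15.3%, 25.4% and 19.6% in control organoids. In EP-like cells the means were 56.6% ± 13.7 and 4.01% ± 3.55 (SD, n = 3 each). In these 4 classes the replicates of the groups did not overlap. Goblet/Paneth-like cells had 31.3%, 52.2% and 14.3% in Treg and 8.33%, 4.55% and 15.4% with the antibody, on 12 to 46 cells per replicate.

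**Figure D4:**
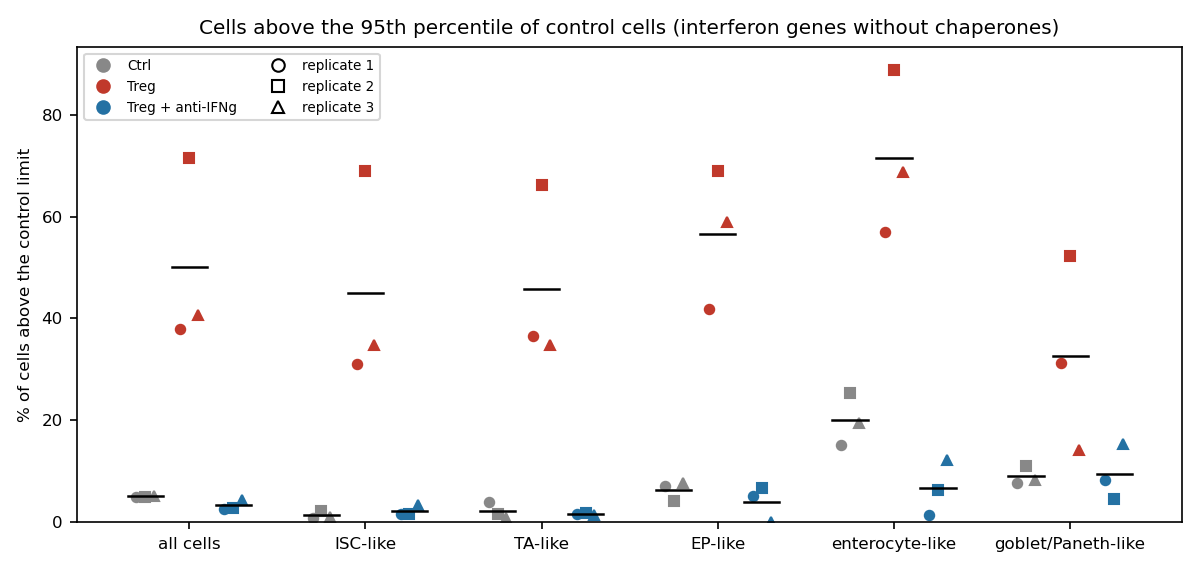
Percent of cells whose UMIs of the MHC class I, immunoproteasome and GTPase lists (without Calr, Canx and Pdia3) exceed the limit, for all cells and 5 classes. The limit is the 95th percentile of control cells of the same replicate. Points are replicates and bars their mean. In all cells the Treg replicates lie at 38.0% to 71.4% and those with anti-IFNγ at 2.72% to 4.42%.

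The make-up of the cultures differed less. Enterocyte-like cells were 14.2%, 14.7% and 11.4% of Treg cells and 9.78%, 7.81% and 10.6% of Treg + anti-IFNγ cells, without overlap but with control organoids at 12.1%, 7.56% and 13.3%. The exact permutation test, again without pairing of the replicates, gave p = 0.1, or 0.35 adjusted over 7 classes. EP-like cells were 7.80%, 8.95% and 9.29% in Treg and 7.74%, 7.41% and 6.23% with the antibody (p = 0.1, exact permutation test, 0.35 adjusted). The gap between the EP-like ranges was small, and they overlapped when only cells with a clear class (a margin of at least 0.02 in the assignment) were counted, with p = 0.3 (exact permutation test). ISC-like cells were 36.6%, 24.5% and 26.7% in Treg and 39.0%, 37.2% and 31.2% with the antibody, higher in each of the 3 replicates but with overlap between the groups (p = 0.2, exact permutation test). TA-like cells were 34.4% of cells on average in both groups.

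**Figure D5:**
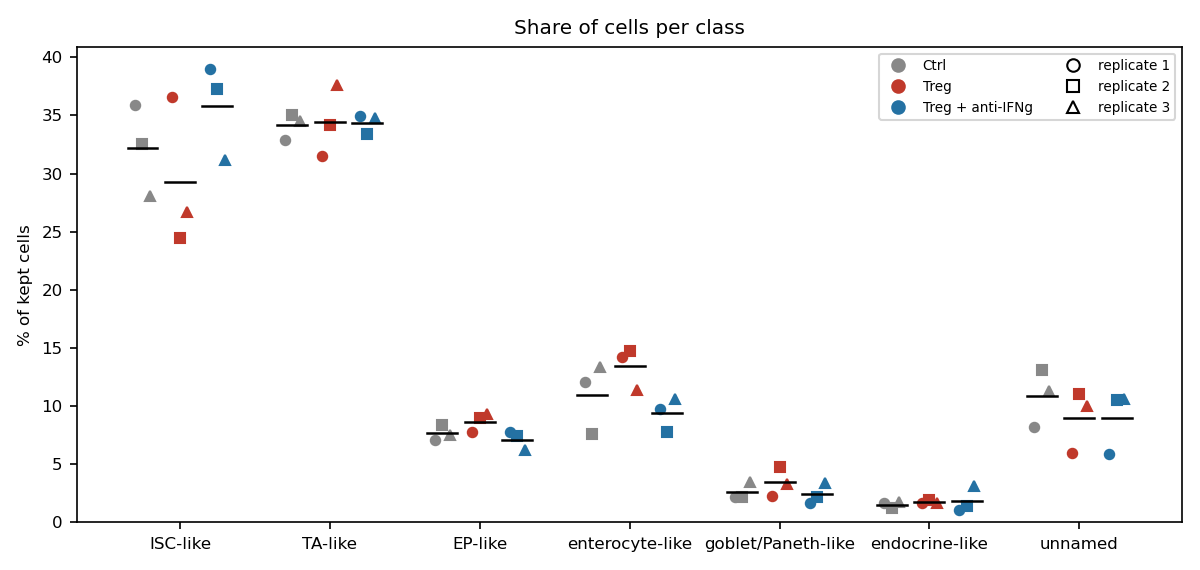
Percent of kept cells in each class for control organoids, Treg and Treg + anti-IFNγ; points are the 3 replicates and bars their mean. Enterocyte-like cells are lower with anti-IFNγ without overlap with Treg, EP-like cells only by the gap between 7.74% and 7.80%, and the other classes overlap.

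Against control organoids, Treg + anti-IFNγ had no gene called of 15002 in either direction by edgeR, with 269 at an unadjusted p below 0.05. The 29 genes that fell with the antibody differed from control by a median of -0.07 on the log2 scale, from -0.68 to 0.37, and none of them had an unadjusted p below 0.05. Treg alone had 23 genes above control (0.153%) and none below, with 1035 at an unadjusted p below 0.05. These comparisons share the control or the Treg samples and are not independent of each other. The contrasts with control were run only in the fit over all 6 groups, without alternatives. Between Treg + anti-IFNγ and Treg that fit called 29 genes, where a fit on those groups alone called 286.

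The antibody against the IL-10 receptor served as a comparison with another antibody in the same co-culture. Treg + anti-IFNγ had 83 genes below Treg + anti-IL-10R (0.553% of 15002) and 8 above (0.0533%). The 91 calls compare with 2 without replicate 3, 30 without replicate 2 and 225 without replicate 1. Irf1 was at 46.2, 73.2 and 65.9 CPM in Treg + anti-IL-10R and Psmb8 at 53.0, 155.5 and 162.5 CPM, and the log2 differences from Treg + anti-IFNγ were -3.14 ± 0.28 and -3.46 ± 0.42. Cd74 was at 43.0, 440.1 and 263.7 CPM with anti-IL-10R. The 8 genes that were higher with anti-IFNγ included Tstd1 (175.8, 159.5 and 209.5 CPM against 138.6, 96.4 and 155.0 CPM), Sycn and the interferon-induced Ifit2, which was at 1.30, 1.34 and 1.05 CPM against 0.490, 0.306 and 0.353 CPM.

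Adding anti-IL-10R to the co-culture without anti-IFNγ gave no called gene of 15002 by edgeR (293 at an unadjusted p below 0.05). This contrast, too, was run only in the fit over all 6 groups. Of the 29 genes that fell with anti-IFNγ, 27 were higher in Treg + anti-IL-10R than in Treg, by a median of 0.16 over the 29 and up to 1.26 (Cd74) on the log2 scale. Of all genes tested, 49.7% had a negative change in this contrast. The 29 were not tested as a set. The interaction asks whether the change with anti-IFNγ differs in the presence of anti-IL-10R. It had no called gene by edgeR, with 295 at an unadjusted p below 0.05, and none by DESeq2, with 175. With both antibodies Irf1 was at 8.80, 6.61 and 7.91 CPM and Cd74 at 1.87, 4.93 and 3.25 CPM, at the level of anti-IFNγ alone. The share of cells above the interferon limit was 32.9%, 78.7% and 65.4% with anti-IL-10R and 5.09%, 4.51% and 5.61% with both antibodies, and in each replicate it was higher with anti-IL-10R than in Treg alone.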

How the data were processed

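Single-cell RNA-seq libraries (10x Genomics 3' chemistry with hashtag antibodies) were deposited as UMI counts per gene and barcode. Per the labels and the study's methods, the authors made these counts with Cell Ranger 7.0.0 on a GRCm38 reference and worked further in Seurat 4.0.5. The counts were used as deposited. The barcodes used here are fewer than the called cells that the study's methods give. A sixth library, which the study also left out, was not used here.

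Hashtag counts were centred log-ratio transformed and called per library with HTODemux (Seurat 5.3.0, quantile 0.99), and only singlets within the limits of UMIs, genes and mitochondrial share were kept. No doublet caller was applied in the main fit. The limits and the comparison were given, and the gene lists, markers and members were chosen with earlier results of these data known. UMIs were summed per group and replicate and tested with edgeR 4.0.16 (R 4.3.3): TMM, filterByExpr, all 6 groups in 1 quasi-likelihood fit with the replicate as a block, Benjamini-Hochberg over all genes tested. The block follows from the replicates, which share libraries: same-numbered sums of different groups deviated together (correlation 0.101 to 0.818, mean 0.552, over 45 pairs). DESeq2 1.42.0 was an alternative. The script was tested on simulated counts.

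Classes came from Leiden clusters of control cells (resolution 1, 30 principal components, 20 neighbors). The only cluster named EP-like had none of its markers among its leading genes. Its score for the EP-like markers was 0.84, while the enterocyte-like cluster had 2.05 for the same markers. The genes named were up to 25 called genes with the largest change and at least 5 CPM, a set of receptor, STAT3, Myc, stem cell and Reg3 genes, up to 4 genes of each list and 5 of each class and contrast with the smallest p. Further members of a list or class, and Casp12, Shfl, Tnfaip8l3, the genes above Treg in TA-like cells and those above Treg + anti-IL-10R, were named after their values were seen. The floor of 3 counts covers counting error only. Each SE was worked back from the test, as the absolute log2 change over the square root of its F statistic. It therefore carries the spread of the fit over all 6 groups. Each SD comes from the replicates. Alternatives covered normalization, filter, block, replicates, libraries as units, equal cell numbers, doublet scores, hashtag quantile, UMI limits and DESeq2. Fits without the cytokine-stimulated group, with thinned cells and without the chaperones were chosen after seeing the data. Some genes measured are not reported here.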

Additional observations from a re-analysis of the deposited data

Results flagged for a closer look

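The genes below moved one way in every replicate of some classes and the opposite way in every replicate of another. The difference between classes was not tested and no value passed the adjusted threshold in its own class. Ifngr1 changed by 0.07 on the log2 scale in ISC-like cells and by -0.23 in goblet/Paneth-like cells. Ifngr2 changed by 0.18 in ISC-like cells, 0.18 in TA-like cells and 0.08 in enterocyte-like cells, and by -0.49 in goblet/Paneth-like cells. Myc changed by 0.20 in EP-like cells and 0.48 in enterocyte-like cells, and by -0.13 in ISC-like cells. The goblet/Paneth-like sums are the smallest, with 47 Treg + anti-IFNγ cells. Groups of 3 samples were too small for a check of single outlying samples.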

How the results depend on the processing

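The number of called genes depended strongly on the fit. The 29 genes called in all cells were lower in every setting, but the settings reuse cells from which they were picked. Without the replicate block the counts were 7 for all cells (29 with it) and 23 against Treg + anti-IL-10R (91), and by class 9 for TA-like cells (56), 4 for enterocyte-like cells (16), 2 for ISC-like cells (26) and 2 for EP-like cells (9). Without a filter on low counts they were 51, 145, 292, 155, 291 and 62 in the same order, and 22 for goblet/Paneth-like cells (0 with it). With only the groups of the contrast they were 286, 397, 298, 108, 289 and 53, and 1 for goblet/Paneth-like cells. Without the cytokine-stimulated group (chosen after seeing the data) they were 385 for all cells, 193 for TA-like, 120 for enterocyte-like, 104 for ISC-like and 26 for EP-like cells. Of the 385 calls, 69 were higher with anti-IFNγ than in Treg. DESeq2 gave 86 for all cells, 161 against Treg + anti-IL-10R, 1 for goblet/Paneth-like cells and 29 for enterocyte-like cells. Libraries as units gave 177 for all cells, 31 of them higher with anti-IFNγ, and equal numbers of cells 28 for enterocyte-like cells. Libraries of the same replicate are not independent, so the count of 177 rests on more units than there were replicates. Leaving out each replicate in turn gave 0 to 67 for all cells, 2 to 225 against Treg + anti-IL-10R, 15 to 82 for TA-like cells, 2 to 24 for enterocyte-like cells, 2 to 70 for ISC-like cells, 0 to 12 for EP-like cells and 0 to 2 for goblet/Paneth-like cells. The interaction had 0 calls in each alternative run. The cause of these shifts was not tested.

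Of the 29 genes, 27 were called again with DESeq2's size factors in place of TMM, 26 without high doublet scores, 27 at the stricter hashtag quantile, 29 with the lower UMI limit, 28 with DESeq2, 7 without the block, 26 without replicate 1, 7 without replicate 2 and 0 without replicate 3. The share of cells above the interferon limit was 16.0% in Treg and 1.37% in Treg + anti-IFNγ with the control 99th percentile (p = 0.3, exact permutation test), and 3.35% in Treg + anti-IFNγ without Calr, Canx and Pdia3. Leaving out each replicate moved it from 33.6% to 53.0% in Treg and from 4.23% to 5.81% in Treg + anti-IFNγ. Leaving out each replicate moved the difference in class share (Treg + anti-IFNγ minus Treg, percentage points) from 3.45 to 8.63 for ISC-like (6.55 with all), -1.77 to 1.35 for TA-like (-0.036), -5.65 to -2.59 for enterocyte-like (-4.03), -2.30 to -0.80 for EP-like (-1.55) and -1.58 to -0.30 for goblet/Paneth-like cells (-1.04). The sign for TA-like cells, near 0, also turned without high doublet scores (0.11), at the stricter hashtag quantile (0.19) and with a clear class only (0.67). Near 0, the log2 change of Ifngr1 ran from -0.020 to 0.043 over the left-out replicates (-0.0072 without replicate 1) and was -0.0073 at the stricter hashtag quantile, and that of Lgr5 ran from -0.098 without replicate 2 to 0.23 without replicate 3.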

Other observations

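Tuft cell genes were higher in Treg + anti-IFNγ in all 9 tested members of the list, with a median log2 change of 1.47, and none passed the test with edgeR. Their summed level was 4.65, 5.74 and 6.89 CPM in Treg, 9.42, 17.4 and 7.89 CPM in Treg + anti-IFNγ and 4.69, 6.04 and 35.5 CPM in control organoids, so that a control replicate was the highest of all. Few cells carried these values. Cells with 4 or more of 6 tuft genes, a rule chosen after the values were seen, numbered 0 in each Treg replicate, 2, 2 and 0 in Treg + anti-IFNγ and 0, 0 and 3 in control organoids, and those of these 3 groups were classed as ISC-like. Dclk1, a kinase that marks tuft cells, had 0, 1 and 0 UMIs in Treg, 20, 203 and 1 in Treg + anti-IFNγ and 1, 1 and 140 in control organoids.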
